A study of Mus musculus with 6 samples.

Results

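Expression of 10 genes of megakaryocytes and platelets was followed in LSK cells, the lineage-negative Sca-1+ c-Kit+ compartment of bone marrow that holds hematopoietic stem and early progenitor cells, of control (Ctrl) and Setd1b conditional knockout (cKO) mice. The genes were Pf4, Itga2b, Itgb3, Gp1bb, Gp9, Ppbp, Treml1, Rab27b, Gucy1a1 and Thbs1, 10 of the 45706 genes counted. They were chosen as platelet genes with the cKO to Ctrl values of these same libraries known, because some of them fell and others rose. Their values in this contrast are therefore given as a description, without p-values. A filter on low counts was passed by 9 of the 10, which entered a fit over 15184 genes, and Ppbp did not pass it.

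Ctrl mice were Setd1b FD/+; RC/+ and cKO mice Setd1b FD/FD; RC/+, with 3 mice and 1 library per mouse in each group. All 6 mice were C57BL/6 males and carried at least 1 FD allele, the conditional allele of the H3K4 methyltransferase gene Setd1b. All also carried RC, a tamoxifen-inducible Cre at the Rosa26 locus that is active in nearly all cell types, so that the deletion was not limited to blood cells. The paper describes the mice as littermates, and the labels do not say which of them shared a litter. Per the labels, every mouse, Ctrl included, received tamoxifen by gavage at 4.5 mg per day on 4 days and, after 3 days of pause, on another 2 days, and was analysed 3 days after the last dose at 16 weeks of age (17 weeks for cKO replicate 3). The paper gives a smaller number of doses than the labels do.

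Megakaryocytes arise from hematopoietic stem cells through progenitors shared in part with the erythroid lineage, and stem cells with a bias toward platelets already carry transcripts of platelet genes. A mature platelet adheres through the GPIb-IX-V complex, aggregates through the integrin αIIbβ3 and releases α-granules, which hold chemokines and adhesive proteins. Nitric oxide restrains platelets through soluble guanylate cyclase and cGMP. In bulk RNA of sorted cells, fewer cells of a type and less RNA per cell cannot be told apart.

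Between 13003573 and 21277519 reads per library were counted on genes. Levels are given as CPM, counts scaled to library size with edgeR's TMM factors. The gene-level count of Setd1b ran against the genotype labels, with 221, 194 and 223 CPM in the Ctrl libraries and 272, 288 and 314 CPM in those labelled cKO. The deletion removes a single exon, which a count over the whole gene hardly covers, so this count does not measure the deletion, and directions are given for the libraries labelled cKO. The LSK gate markers Kit, Ly6a and Cd34 were present in every library, with summed CPM of 876 to 982 in the Ctrl libraries and 861 to 953 in those labelled cKO, and none of the 3 passed the threshold. The header of the count table gives each library a number, and the libraries were split here into 2 series at a gap between these numbers. Neither the labels nor the paper describe such series, and what the gap reflects is not known. The first series holds cKO replicates 1 and 2 with Ctrl replicate 1, and the second holds cKO replicate 3 with Ctrl replicates 2 and 3. Differences within a series thus set 1 library against 2.

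The 10 genes moved in both directions, which is how they had been chosen and is not a finding. At an adjusted p-value under 0.05 in edgeR's quasi-likelihood fit over all genes, 3 of the 9 that entered the fit were higher in the libraries labelled cKO (Itgb3, Rab27b and Gucy1a1), where 3.88% of all genes tested were higher. A further 2 were lower (Pf4 and Thbs1), where 3.79% of all genes were lower. These 5 were also the ones whose 3 Ctrl and 3 cKO values did not overlap, which held for 27.3% of all genes tested. The remaining 4 (Itga2b, Gp1bb, Gp9 and Treml1) had overlapping values and passed in neither direction. Because the genes were picked on this contrast, nothing follows from how these shares compare.

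**Figure D1:**
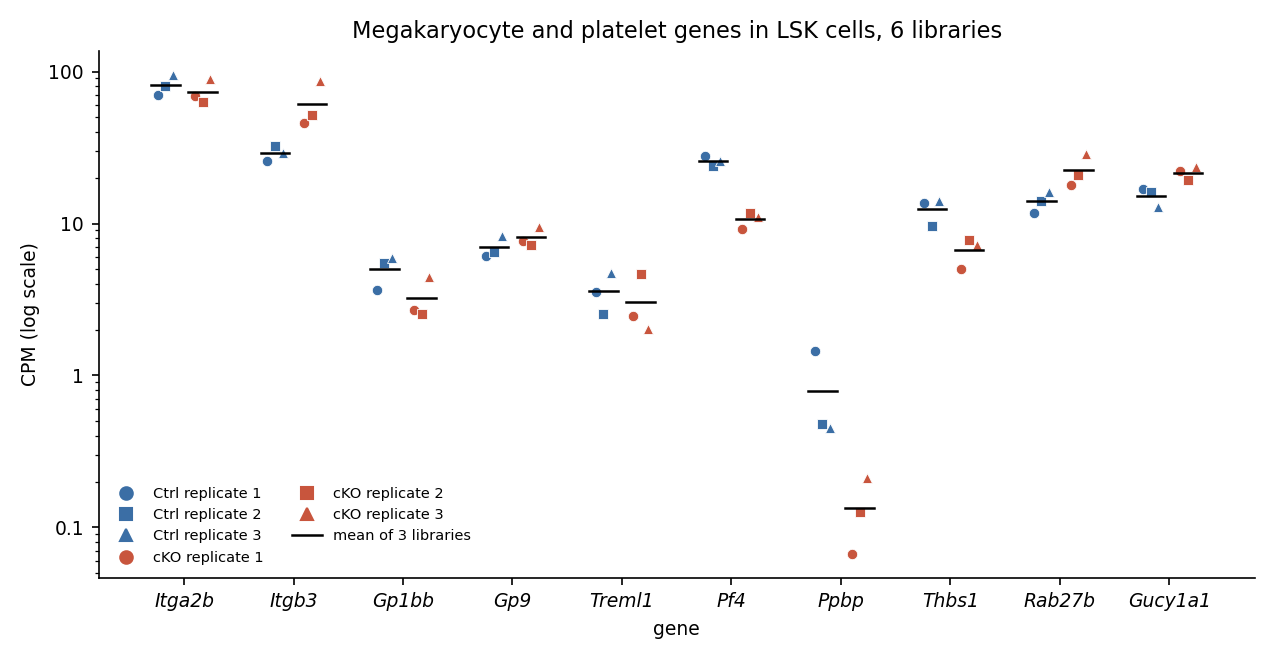
CPM of the 10 genes in each of the 6 libraries, on a log scale, with Ctrl in blue, the libraries labelled cKO in red, a symbol for each replicate number and a black line at the mean of 3 libraries. Pf4, Ppbp and Thbs1 lay lower and Itgb3, Rab27b and Gucy1a1 higher in all 3 libraries labelled cKO than in any Ctrl library, and the other 4 genes overlapped.

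The subunits of the fibrinogen receptor αIIbβ3 parted. Itga2b (ENSMUSG00000034664, chromosome 11, 102453297 to 102470122) encodes αIIb, also known as CD41, which pairs with β3 alone. It was at 69.6, 79.9 and 95.3 CPM in the Ctrl libraries and at 68.9, 63.0 and 88.8 CPM in those labelled cKO. The groups overlapped over most of their range, and the log2 fold change was -0.15 (SE 0.12).

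Itgb3 (ENSMUSG00000020689), which lies 2.14 Mb away on the same chromosome from 104608000 to 104670476, encodes β3, which also pairs with αV in the vitronectin receptor. Its levels were 25.8, 32.3 and 29.3 CPM in the Ctrl libraries and 45.9, 51.5 and 87.0 CPM in those labelled cKO. Every library labelled cKO lay above every Ctrl library, and cKO replicate 3 stood well above the other two. Itgb3 rose by 1.07 on the log2 scale (SE 0.18), from 29.1 ± 3.27 to 61.4 ± 22.3 CPM (SD, n = 3 each). Without cKO replicate 3 the log2 fold change was 0.73, still past the threshold, and within the first and second library series it was 0.91 and 1.49.

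Set against each other per kilobase of exon, Itga2b exceeded Itgb3 by log2 ratios of 1.55, 1.42 and 1.81 in the Ctrl libraries and of 0.70, 0.40 and 0.14 in those labelled cKO. The mean ratio thus went from 3.02 to 1.33 on the linear scale, with no overlap between the groups. Itgav, the gene of αV, stayed at 35.3 to 36.3 CPM in the Ctrl libraries and 36.5 to 43.7 CPM in those labelled cKO (log2 fold change 0.15, adjusted p = 0.36 in the edgeR fit). The log2 ratio of Itgb3 to Itgav was 0.56 ± 0.18 in the Ctrl libraries and 1.44 ± 0.55 in those labelled cKO (SD, n = 3 each), again without overlap. Transcript of β3 therefore stood higher relative to both of its partners in the libraries labelled cKO. Itgb3 was picked with its rise in this contrast known, so these ratios restate that rise and are no separate finding. Around the receptor, the adaptors Fermt3 (kindlin-3), Tln1 (talin) and Apbb1ip had log2 fold changes of 0.03, 0.04 and -0.06, none past the threshold. Rasgrp2, the exchange factor that loads Rap1 in platelets, fell by 0.35 in log2 units (adjusted p = 0.0051), and Rap1b, the main platelet Rap1, rose by 0.23 (adjusted p = 0.043). The call of Rap1b was lost in 7 of 14 other fits, among them each fit that left out 1 mouse except Ctrl replicate 3, with log2 fold changes of 0.20 to 0.29.

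**Figure D2:**
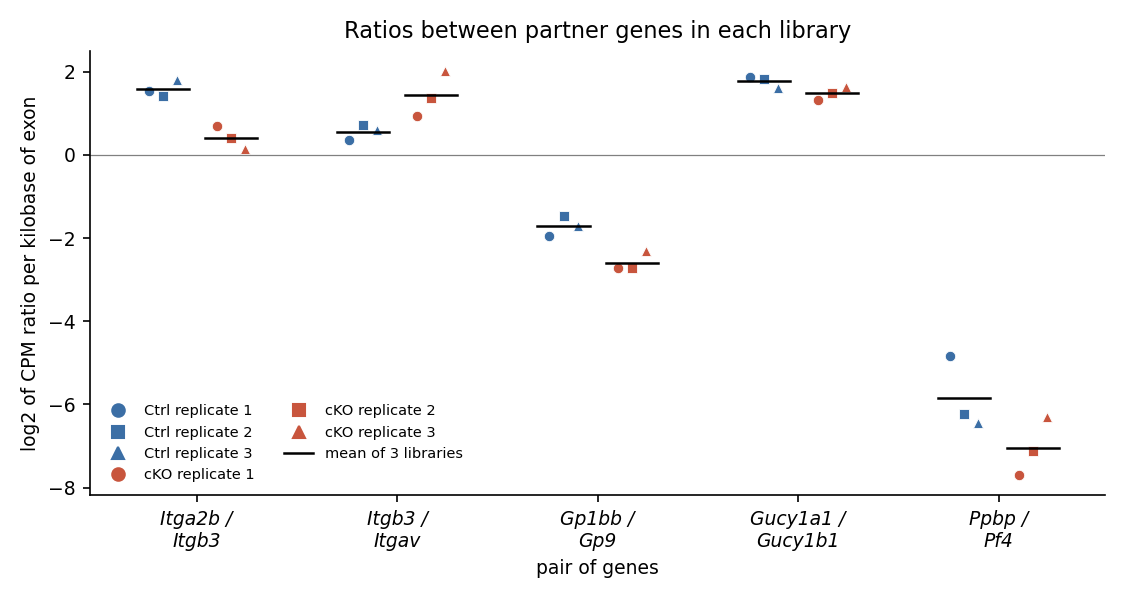
Log2 ratio of 5 pairs of genes in each library, from CPM per kilobase of exon, with Ctrl in blue, the libraries labelled cKO in red and a black line at the mean of 3 libraries. The ratios of Itga2b to Itgb3, Itgb3 to Itgav and Gp1bb to Gp9 separated the groups without overlap, and those of Gucy1a1 to Gucy1b1 and Ppbp to Pf4 did not. Every pair includes a gene picked on this contrast, so the ratios are a description and not a test.

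The genes of the von Willebrand factor receptor GPIb-IX-V had low CPM in all libraries. Per kilobase of exon, however, Gp9 was at 8.62 in the Ctrl libraries, above Itgb3 at 4.94. Gp1bb (ENSMUSG00000050761, chromosome 16, 18620319 to 18622403), the GPIbβ subunit, had 3.67, 5.48 and 5.95 CPM in the Ctrl libraries and 2.68, 2.54 and 4.42 CPM in those labelled cKO. The highest library labelled cKO lay above the lowest Ctrl library, and the log2 fold change of -0.66 (SE 0.28) was not past the threshold. Of the 1881 exon bases of Gp1bb, 593 (31.5%) are shared on the same strand with Sept5, so that reads there could not be assigned to one gene, and the level of Gp1bb is uncertain to that extent. Sept5 itself had 3 to 16 counts per library.

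Gp9 (ENSMUSG00000030054, chromosome 6, 87778136 to 87779762), the GPIX subunit, was at 6.12, 6.53 and 8.32 CPM in the Ctrl libraries and at 7.64, 7.24 and 9.54 CPM in those labelled cKO. These ranges overlapped, with a log2 fold change of 0.22 (SE 0.19). The ratio of Gp1bb to Gp9 per kilobase went from a log2 value of -1.70 ± 0.24 to -2.59 ± 0.23 (SD, n = 3 each). Here the groups did not overlap, although each gene alone did. The level of this ratio carries the uncertainty from the bases shared with Sept5, and Gp1bb had only 40 to 115 counts per library. The remaining subunits, from a wider list of platelet genes, were Gp1ba (log2 fold change -0.14, adjusted p = 0.71), which binds von Willebrand factor, and Gp5 (-0.39, adjusted p = 0.20), and neither passed.

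Of the 3 genes of secreted granule proteins, Pf4 and Thbs1 fell and Ppbp had too few counts to be tested. Pf4 (ENSMUSG00000029373, chromosome 5, 90772435 to 90773383), the platelet chemokine CXCL4 and a classical marker of the megakaryocyte lineage, was at 27.7, 24.0 and 25.9 CPM in Ctrl. It was at 9.25, 11.7 and 11.1 CPM in the libraries labelled cKO. The groups were far apart compared with the spread inside either of them, and Pf4 fell by 1.27 on the log2 scale (SE 0.13), 2.42-fold, from 25.9 ± 1.86 to 10.7 ± 1.27 CPM (SD, n = 3 each). The difference was -1.40 in the first and -1.16 in the second library series, and over 14 alternatives the log2 fold change stayed between -1.35 and -1.18, past the threshold in each.

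Ppbp (ENSMUSG00000029372, chromosome 5, 90768518 to 90770063), the precursor of further platelet chemokines, ends 2371 bases before Pf4 begins. It had 19, 10 and 7 counts in the Ctrl libraries and 1, 2 and 3 counts in those labelled cKO. Each library labelled cKO was at or under 3 counts and each Ctrl library above it, with Ctrl replicate 1 highest. Pooled over libraries and scaled for depth, the ratio of cKO to Ctrl was 0.184. Its exact 95% interval of 0.0635 to 0.442 covers counting error only and not the spread between mice. Of the 36 pooled Ctrl counts, 19 came from Ctrl replicate 1. The library series gave log2 differences of -2.83 and -0.80. Relative to Pf4 in the same library, Ppbp had log2 ratios of -4.84, -6.24 and -6.44 in the Ctrl libraries and of -7.70, -7.11 and -6.31 in those labelled cKO, which overlapped. Of the other chemokine genes next to the pair, Cxcl15 and Cxcl1 had no count in any library. Cxcl5, Cxcl3 and Cxcl2 had group means of at most 0.131 CPM.

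Thbs1 (ENSMUSG00000040152, chromosome 2, 118111876 to 118127133) encodes thrombospondin-1, an adhesive protein of α-granules. Its values were 13.6, 9.63 and 14.0 CPM in the Ctrl libraries and 5.03, 7.75 and 7.22 CPM in those labelled cKO. The groups did not overlap, with Ctrl replicate 2 nearest to the other group, and Thbs1 fell by 0.89 on the log2 scale (SE 0.20), 1.85-fold. It missed the threshold without cKO replicate 1 (-0.72) or without Ctrl replicate 3 (-0.79), and the library series gave -1.11 and -0.68.

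The 250 bases before the transcript start are shown for the genes of this set whose stretch meets no annotated exon, to set the neighbours Pf4 and Ppbp, which were both low in the libraries labelled cKO, beside Gp9 and Treml1, which overlapped between groups. Sequences and start sites are those of RefSeq on GRCm38.p6, 5′ to 3′ on the strand of the gene, which is the plus strand for all 4. They cover chr5:90772185-90772434 (Pf4), chr5:90768268-90768517 (Ppbp), chr6:87777820-87778069 (Gp9) and chr17:48359666-48359915 (Treml1). Capitals mark matches on either strand to the ETS motif (AGGAAG, or the same with C as its first base) and to the RUNX motif (TGTGGT). For GATA factors, AGATAA was searched with A or T as the first and A or G as the last base, and none of these forms lies in the 4 stretches shown.
Pf4: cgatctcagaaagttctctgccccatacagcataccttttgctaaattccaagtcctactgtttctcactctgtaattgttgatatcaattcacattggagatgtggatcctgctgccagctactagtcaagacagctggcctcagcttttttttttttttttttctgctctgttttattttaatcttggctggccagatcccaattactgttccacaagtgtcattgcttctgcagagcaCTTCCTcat
Ppbp: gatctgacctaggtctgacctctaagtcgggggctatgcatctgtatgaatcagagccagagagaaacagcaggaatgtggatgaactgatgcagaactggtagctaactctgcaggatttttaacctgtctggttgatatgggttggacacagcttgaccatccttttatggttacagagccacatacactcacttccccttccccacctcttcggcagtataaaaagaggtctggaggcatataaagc
Gp9: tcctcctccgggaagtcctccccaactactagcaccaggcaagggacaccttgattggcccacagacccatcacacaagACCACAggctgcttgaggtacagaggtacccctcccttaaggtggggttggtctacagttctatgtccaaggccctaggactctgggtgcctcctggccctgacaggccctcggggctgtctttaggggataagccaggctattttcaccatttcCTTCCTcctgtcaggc
Treml1: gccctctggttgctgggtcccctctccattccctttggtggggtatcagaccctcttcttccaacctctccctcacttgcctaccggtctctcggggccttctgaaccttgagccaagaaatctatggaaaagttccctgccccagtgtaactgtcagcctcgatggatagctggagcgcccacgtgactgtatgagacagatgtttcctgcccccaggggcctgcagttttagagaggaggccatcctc
Pf4 and Gp9 each held an ETS match close to the start, at 9 and 16 bases before it, and Gp9 a RUNX match 171 bases before it, while Ppbp and Treml1 held none of the motifs. For Gp9 the RefSeq start is 87778070, whereas the counted gene begins at 87778136. The bases after that RefSeq start were not found in a GENCODE M21 transcript of Gp9, so its distances are less certain. No match overlapped another. Promoters were found for 7 of the 10 genes, 8 promoters in all, from 250 bases before to 50 after the start. An ETS match lay in 5 of these 8, a GATA match in 3 and a RUNX match in 2. Among all 32851 promoters of the table the shares were 46.5% for ETS, 29.8% for GATA and 16.8% for RUNX. A match of letters is a description and does not show that a factor binds.

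Of 13 tested genes of granule membranes and secretion, 1 was higher and 0 were lower. The higher one was Rab27b, which was picked on this contrast. Nothing follows, therefore, from its share of 7.69% against 3.88% of all genes. Treml1 (ENSMUSG00000023993, chromosome 17, 48359916 to 48367174), the α-granule receptor TLT-1, had 3.52, 2.53 and 4.73 CPM in the Ctrl libraries and 2.48, 4.64 and 2.03 CPM in those labelled cKO. The groups overlapped almost completely, at a log2 fold change of -0.22 (SE 0.34).

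Rab27b (ENSMUSG00000024511), on chromosome 18 from 69979131 to 70141605, encodes a small GTPase needed for the formation and release of platelet granules. It was at 11.8, 14.1 and 16.1 CPM in the Ctrl libraries and at 17.8, 21.0 and 28.6 CPM in those labelled cKO. All libraries labelled cKO lay above all Ctrl libraries, but the nearest values of the groups were close together. Rab27b rose by 0.68 on the log2 scale (SE 0.17), 1.60-fold. It missed the threshold without Ctrl replicate 1 (0.58), without cKO replicate 2 (0.73) or without cKO replicate 3 (0.47), and the library series gave 0.71 and 0.92. Its paralog Rab27a, at 99.2 CPM in the Ctrl libraries and 85.9 CPM in those labelled cKO, differed by -0.21 in log2 units (adjusted p = 0.24). Selp, the α-granule membrane protein P-selectin, had 13.5, 40.1 and 36.2 CPM in the Ctrl libraries and 48.2, 42.8 and 60.1 CPM in those labelled cKO (log2 fold change 0.73, adjusted p = 0.094). Ctrl replicate 1 stood apart, and without it the log2 fold change was 0.40 (adjusted p = 0.078). Once the series entered the model as a second term, Selp passed the threshold (1.12, adjusted p = 0.00092).

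Gucy1a1 (ENSMUSG00000033910, chromosome 3, 82092427 to 82145789) encodes the α1 subunit of soluble guanylate cyclase, the receptor for nitric oxide. Its values were 16.8, 16.2 and 12.8 CPM in the Ctrl libraries and 22.1, 19.4 and 23.4 CPM in those labelled cKO, with every library labelled cKO above every Ctrl library. Gucy1a1 rose by 0.50 on the log2 scale (SE 0.13), 1.42-fold, the smallest of the 5 changes. It missed the threshold without cKO replicate 1 (0.49), 2 (0.58) or 3 (0.44) and without Ctrl replicate 3 (0.39), and the library series gave 0.30 and 0.70.

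Gucy1b1, the gene of the obligate partner β1, was at 2.60, 2.57 and 2.37 CPM in the Ctrl libraries and at 4.96, 3.88 and 4.28 CPM in those labelled cKO. These groups did not overlap either, but the log2 fold change of 0.80 (SE 0.26) did not pass (adjusted p = 0.074, and 0.058 to 0.23 over the alternatives). The log2 ratio of Gucy1a1 to Gucy1b1 per kilobase was 1.77 ± 0.14 in the Ctrl libraries and 1.48 ± 0.15 in those labelled cKO (SD, n = 3 each), with overlap. Downstream of the cyclase, the cGMP-dependent kinase Prkg1 (0.57, adjusted p = 0.060), the phosphodiesterase Pde5a (0.08, adjusted p = 0.80) and the kinase substrate Mrvi1 (-0.57, adjusted p = 0.20) did not pass.

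The order of the 10 genes by level was not the same in both groups. On the scale of CPM per kilobase of exon, the Ctrl libraries ranked Pf4 first at 35.9 ± 2.58, followed by Itga2b at 15.0 ± 2.37, Gp9 at 8.62 and Itgb3 at 4.94 ± 0.554 (SD, n = 3), and no pair of neighbours among these 4 overlapped. Below them came Treml1 at 2.88, Gp1bb at 2.68, Gucy1a1 at 2.19 and Thbs1 at 2.05, whose neighbours overlapped, then Rab27b at 1.31 and Ppbp at 0.732, which overlapped with each other. In the libraries labelled cKO, Pf4 (14.8 ± 1.76), Itga2b (13.5 ± 2.48), Itgb3 (10.4 ± 3.78) and Gp9 (10.0) formed a group in which each neighbour overlapped the next. After these, the order was Gucy1a1 at 3.11, Treml1 at 2.44, Rab27b at 2.11, Gp1bb at 1.71, Thbs1 at 1.10 and Ppbp at 0.124. There, Gp9 and Gucy1a1, Gp1bb and Thbs1, and Thbs1 and Ppbp were separated without overlap.

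The wider platelet list of 74 genes in 10 roles, which includes the 10 genes, showed both directions as well. Beside the 10 genes it holds 64, of which 59 were tested. Of these 59, 7 were higher (11.9%, against 3.88% of all genes tested) and 2 were lower (3.39%, against 3.79%). Values of 24 of the 59 did not overlap between groups, a larger share than the 27.3% of all genes. The list was written with earlier results of these data known. The median log2 fold change over all 68 tested genes of the list was 0.05, against 0.0002 over all genes, and the median absolute value for the 59 was 0.18, against 0.16. The role named granule cargo, a grouping made for the list and not measured here, held large changes in both directions. Listing in this role, as of F13a1, does not show that the protein is held in granules. F13a1, the A subunit of coagulation factor XIII, had 116, 115 and 90.6 CPM in the Ctrl libraries and 33.5, 24.2 and 20.7 CPM in those labelled cKO, and fell by 2.03 on the log2 scale (SE 0.14, adjusted p = 4.3e-07). F5, coagulation factor V, had 12.6, 12.6 and 13.1 CPM in the Ctrl libraries and 32.2, 32.1 and 31.5 CPM in those labelled cKO, and rose by 1.32 (SE 0.11, adjusted p = 2.2e-06). Both groups were tight in F5, and neither gene overlapped between groups.

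Also in the role named granule cargo, Clu (clusterin) rose by 1.52 in log2 units (adjusted p = 0.020) from 1.07, 5.58 and 2.30 CPM to 7.91, 9.34 and 9.75 CPM. It lost the call with DESeq2 and without cKO replicate 2, cKO replicate 3 or Ctrl replicate 3 (adjusted p 0.07 to 0.11), and its log2 fold change was 2.38 without Ctrl replicate 2. Vwf, von Willebrand factor, had 23.5 to 39.5 CPM in the Ctrl libraries and 32.0 to 35.8 CPM in those labelled cKO and did not pass (0.12, adjusted p = 0.69). Outside that role, the genes that rose included Ptgs1, the cyclooxygenase of thromboxane synthesis (0.70, adjusted p = 0.0018), and Mylk, myosin light chain kinase (0.61, adjusted p = 0.019). F2r, the gene of the receptor PAR1, rose as well (0.51, adjusted p = 0.0011). The PAR genes F2rl2 (-0.17, adjusted p = 0.69) and F2rl3 (0.40, adjusted p = 0.12) did not pass, so the rise of F2r does not stand for the thrombin receptors of the list. The call of Mylk was lost without cKO replicate 1 (0.52) or Ctrl replicate 1 (0.50). The roles with no called gene were the GPIb-IX-V complex (4 tested) and the collagen and ITAM receptors (5 tested), in which Syk came nearest at 0.21 (adjusted p = 0.059).

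**Figure D3:**
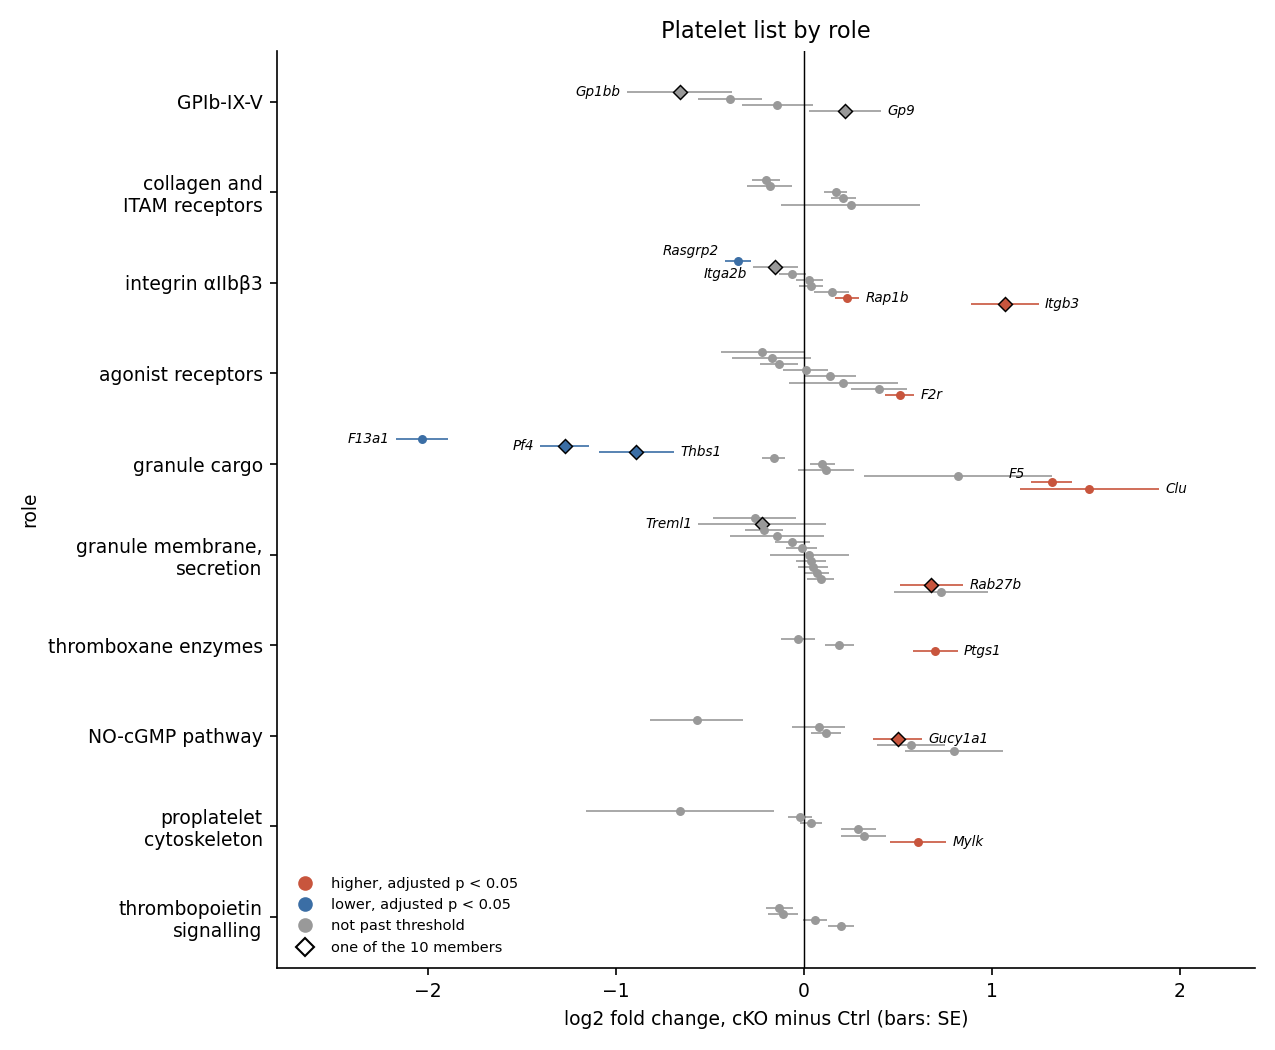
Log2 fold change of the libraries labelled cKO over Ctrl for tested genes of the platelet list, grouped by role, with bars of 1 SE, diamonds for the 10 genes and named points for these and for the plotted genes past the threshold. Mmrn1 is left out because its fitted value has an SE of 1.1. The falls of F13a1, Pf4 and Thbs1 and the rises of F5 and Clu all lie in the role that the list names granule cargo.

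Some markers of mature megakaryocytes were close to absent in both groups, although others, such as Pf4, Gp9 and Vwf, were counted in every library. Gp6, the collagen receptor, had 0.0765 CPM in Ctrl replicate 1 and no count in the other 5 libraries. Clec1b was at 0.842, 0.572 and 0.448 CPM in the Ctrl libraries and at 0.536, 0 and 0.210 CPM in those labelled cKO. Tubb1, the platelet β-tubulin, was at 0.953 to 1.45 CPM in the Ctrl libraries and 0.335 to 0.912 CPM in those labelled cKO (log2 fold change -0.66, adjusted p = 0.48). Among 11 transcription factors of the megakaryocyte program, Gata1 was lower (-0.64, adjusted p = 0.0035) and Fli1 higher (0.33, adjusted p = 0.0048), both without overlap between groups. The other 9, Nfe2 among them (-0.04), did not pass.

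Markers of other cells moved with genotype in the same libraries. For erythroid cells 4 of 6 tested markers were lower (Car1, Ermap, Klf1 and Rhd), and the summed level of the list was 108 to 156 CPM in the Ctrl libraries and 17.2 to 25.3 CPM in those labelled cKO, with Slc4a1 and Hba-a1 near 0 in both. For granulocytes and monocytes 7 of 8 were lower, with sums of 2898 to 3492 and 481 to 784 CPM. For mast cells and basophils 3 of 5 were lower, with sums of 55.0 to 62.4 and 18.4 to 25.9 CPM, and for lymphoid progenitors 3 of 7, with sums of 783 to 1511 and 433 to 551 CPM. Stem cell markers went the other way, with 6 of 9 higher (among them Fgd5, Procr and Tek) and sums of 274 to 301 and 350.2 to 390.1 CPM. Endothelial markers had 1 of 3 tested higher (Kdr), with sums of 10.8 to 13.1 and 15.5 to 18.4 CPM, and the lineage antigens used for depletion had 1 of 3 tested higher (Itgam), with sums of 39.5 to 43.6 and 49.7 to 64.3 CPM. The part of these shifts in the values of the 10 genes was not tested.

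**Figure D4:**
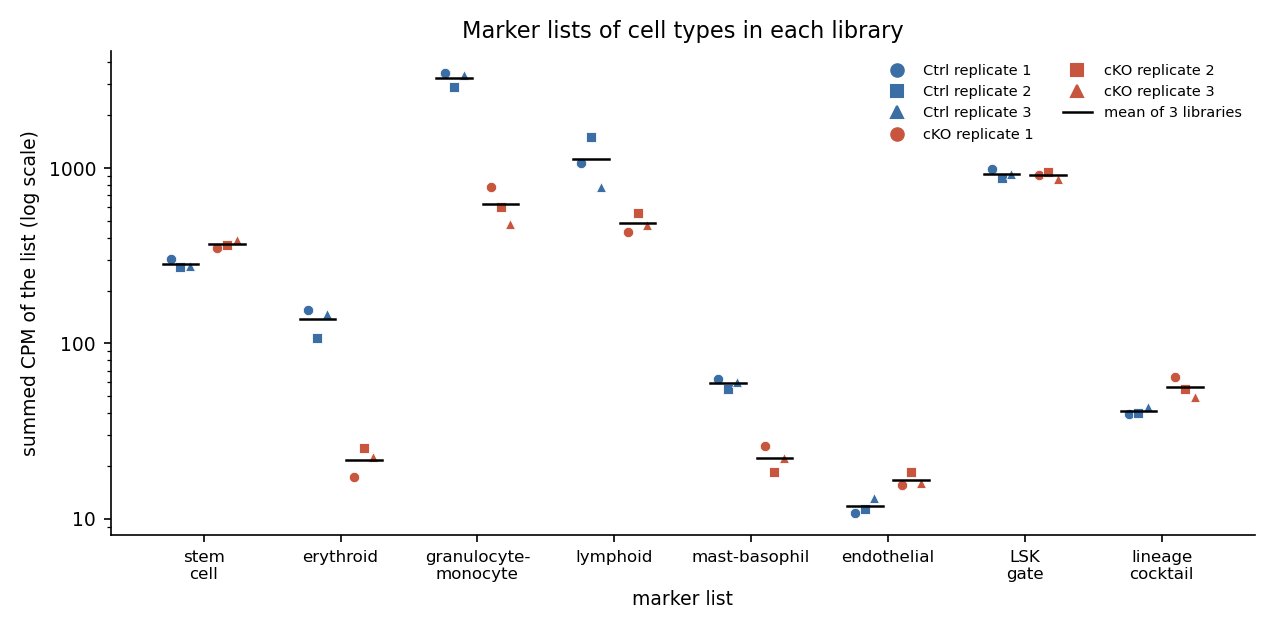
Summed CPM of 8 lists of cell type markers in each library, on a log scale, with Ctrl in blue, the libraries labelled cKO in red and a black line at the mean of 3 libraries. The erythroid, granulocyte-monocyte, lymphoid and mast-basophil sums were lower and the stem cell, endothelial and lineage sums higher in each of the 3 libraries labelled cKO than in any Ctrl library, and the LSK gate sums overlapped.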

How the data were processed

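RNA-seq was performed on LSK cells of 3 Ctrl and 3 cKO mice with the SMARTer Stranded Total RNA-seq Pico kit and 75 bp single reads. The authors aligned the reads to mm10 with GSNAP 2015-12-31 and counted them per gene on its strand with featureCounts 1.5.0 (minimum mapping quality 1, Ensembl models), and they deposited raw counts per gene, without normalization or pooling, beside the summed exon length of each gene (unit: bases). The table holds 0 columns of other samples. Symbols came from GENCODE M21 by gene identifier. Neither multi-mapping paralogs nor shared exons can be resolved from such counts.

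From the counts, edgeR 4.0.16 in R 4.3.3 was run with TMM scaling, filterByExpr and the quasi-likelihood test with genotype as the only term, and p-values were adjusted by Benjamini-Hochberg over 15184 genes (threshold 0.05). The SE was derived from the fitted log2 fold change and its F statistic. Differences within library series were taken on log2 CPM (prior count 2). The procedure was tested on simulated data. Mice are separate animals. DESeq2 1.42.0, other scalings and filters, a threshold of 0.01, the library series as a covariate and leaving out each mouse were planned as alternatives, and removal of the trend on gene length (loess, span 0.3) was chosen after seeing the data.

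The 10 genes, the platelet list and the marker lists were chosen with earlier results of these data known. Named in the text were the 10 genes, Setd1b, platelet genes of the list past the threshold, a fixed set of others (Vwf, Gp1ba, Gp5, Gp6, Gucy1b1, Itgav, Selp, Tubb1, Mmrn1, Gata1, Fli1, Nfe2), the chemokine cluster and leading marker genes. Further genes of a role were named after their values had been seen. Some items are not reported here or drawn, although they are part of the counts. Promoters of 3 of the 10 genes and their proteins were not analysed here.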

Additional observations from a re-analysis of the deposited data

How the results depend on the processing

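No paired analysis was possible because the replicate numbers follow the order of deposition, and the labels do not say which of the mice shared a litter. Of 940 recomputed values, 879 were classed as unchanged and 0 as reversed. Genes were classed by direction and side of the threshold. A gene past it in neither fit counted as unchanged even where its sign differed. This was so for Treml1 (-0.22, and 0.03 without Ctrl replicate 3) and Vwf (0.12, and -0.04 without Ctrl replicate 1), among others. Counts of genes were classed as unchanged within a fixed factor, also where both were 0, and other values within their spread. Over all genes, 589 were higher and 575 lower, 50.6% of calls being higher. This share was 69.7% with library totals (820 higher, 356 lower), a scaling that moved the median of all genes by 0.06, and 38.3% with the length trend removed (523 higher, 842 lower). Without a filter on low counts 873 genes were lower. At an adjusted p under 0.01, 241 genes were higher and 272 lower, and 5 genes of the platelet list were higher. With each mouse left out in turn, 296 to 531 genes were higher and 308 to 594 lower, and both counts were lowest without cKO replicate 2. In the platelet list, 6 to 10 genes were then higher and 3 to 5 lower, against 10 and 4 with all mice. The 6 arose without cKO replicate 2 or 3. The list median of 0.05 was 0.11 with library totals, -0.0050 with the length trend removed and 0.02 to 0.07 with a mouse left out. The causes were not tested. Pf4 and Itgb3 kept direction and call in all 14 other fits and at the threshold of 0.01. The calls of Rab27b, Gucy1a1 and Thbs1 were lost at this threshold and in 3, 4 and 2 fits that left out a mouse. The 10 genes were picked on these same libraries, so a kept call is no separate support. A fit that leaves out a mouse has 2 libraries in that group. For Ppbp, which needs a fit without the filter, the log2 fold change was -2.47 with edgeR and -2.55 with DESeq2. Depth limits statements on Ppbp, Treml1, Gp1bb and Tubb1.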

Other observations

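Mmrn1 (ENSMUSG00000054641, chromosome 6, 60924976 to 60989378), which encodes the α-granule protein multimerin-1, followed individual mice and not the genotype. It had 0, 314 and 263 counts in Ctrl replicates 1, 2 and 3 and 0, 360 and 1 counts in the libraries labelled cKO. Of the 6 libraries, 3 thus held 263 counts or more and 3 held at most 1. The fitted log2 fold change of Mmrn1 was -0.48 (SE 1.1, adjusted p = 0.84, edgeR) and ranged from -8.00, without cKO replicate 2, to 0.10, without cKO replicate 1, so that no genotype difference is given for it.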
